A study of Mus musculus with 6 samples.

Results

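A set of 10 genes that are widely used to place a macrophage or microglial cell between classical (M1) and alternative (M2) activation were examined in BV2 cells with and without sTREM-1. They were taken by symbol from the 46095 genes of the count table. Nos2, Acod1, Gch1, Ass1 and Slc7a2 were placed here on the M1 side, and Arg1, Mrc1, Chil3, Retnla and Il4ra on the M2 side. All 10 had an entry in the table, 8 had counts and passed the filter on low counts, and Chil3 and Retnla were listed at 0 in all 6 libraries. BV2 is an immortalized line of mouse microglia, and sTREM-1 is the soluble form of the myeloid receptor TREM-1. The CON group consisted of untreated BV2 cells (n = 3 libraries). The sTREM-1 group had received the recombinant protein at a dose of 1 μg/mL, and its exposure lasted 6 h (n = 3 libraries). The labels do not say that the 3 libraries of a group came from separate cultures, so p-values measure the spread between these libraries, which may be technical. The methods give n = 4 for the seeded wells, and 3 libraries per group were analysed here. All cells were of a single line, and each library was bulk RNA.

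Macrophages that meet microbial products or interferon-gamma take up arginine and convert it to nitric oxide, and they divert a Krebs cycle intermediate to itaconate. Macrophages that meet IL-4 or IL-13 signal through the IL-4 receptor and STAT6, and mouse cells then make arginase, the mannose receptor and a set of secreted proteins. Nitric oxide synthase and arginase use the same substrate, so the expression of both enzymes is often read side by side. Both programs are extremes of a range, and microglia can express genes of both at once.

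The depth of the 6 libraries ranged from 40070633 to 45877107 counts. Of 14120 genes tested, 4312 differed between the groups at an adjusted p under 0.05 (edgeR's quasi-likelihood test, Benjamini-Hochberg adjustment), and the median size of the change over all tested genes was 0.13 on the log2 scale. Of 17 myeloid markers, 15 were tested, and their summed level was 3177 to 3210 CPM (the counts of a gene scaled to library size) in the CON group and 3515 to 3574 CPM in the sTREM-1 group. Of these, 8 rose (53.3%, against 16.5% of all tested genes) and 0 fell (against 14.1%) in edgeR. DESeq2 and limma-voom also gave 8 and 0. At an unadjusted p under 0.05 in edgeR 12 rose and 0 fell. Csf1r rose from 521 to 753 CPM, while Cd68 (605 and 589 CPM) and Tyrobp (300 and 293 CPM) were not called. Cx3cr1 and C1qa, among the 8, stood at 0.945 and 1.59 CPM in the CON group. They stayed called in 3 and 4 of the 6 fits that left 1 library out. The part of the rise in myeloid markers in the results that follow was not tested. The myeloid markers Aif1 and Sall1 were listed at 0, and the microglial markers Tmem119 and P2ry12 stood at 1.47 and 0.668 CPM in the CON group. Summed markers of astrocytes, neurons, lymphocytes, and fibroblasts with endothelial cells reached at most 1.26, 0.277, 0.0469 and 0.585 CPM in any library. Summed oligodendrocyte markers, most of whose counts were from Cnp, ranged from 21.7 to 23.7 CPM in the CON group and from 23.5 to 26.3 CPM in the sTREM-1 group.

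Of the 8 tested genes, 6 differed between the groups, against 30.5% of all tested genes. Nos2, Acod1, Slc7a2 and Arg1 rose (16.5% of all tested genes rose), and Gch1 and Il4ra fell (14.1% of all tested genes fell). With upper quartile scaling the same number of these genes rose and fell, but among all tested genes 1977 rose and 2383 fell, against 2324 and 1988 with TMM. In the same 6 genes the CPM values of the groups did not overlap, which was so for 40.7% of all tested genes. Mrc1 and Ass1 did not pass the test, and their groups overlapped. With the sides as placed here, 3 genes rose and 1 fell on the M1 side, and 1 rose and 1 fell on the M2 side. Of these calls, those of Nos2 and Il4ra were lost with DESeq2 (adjusted p = 0.154 and 0.0579) and without single libraries. The median log2 fold change of the 8 tested genes was 0.12, and that of all tested genes was -0.0017. In bulk RNA, fewer cells that express a gene and less RNA of it per cell cannot be told apart.

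**Figure D1:**
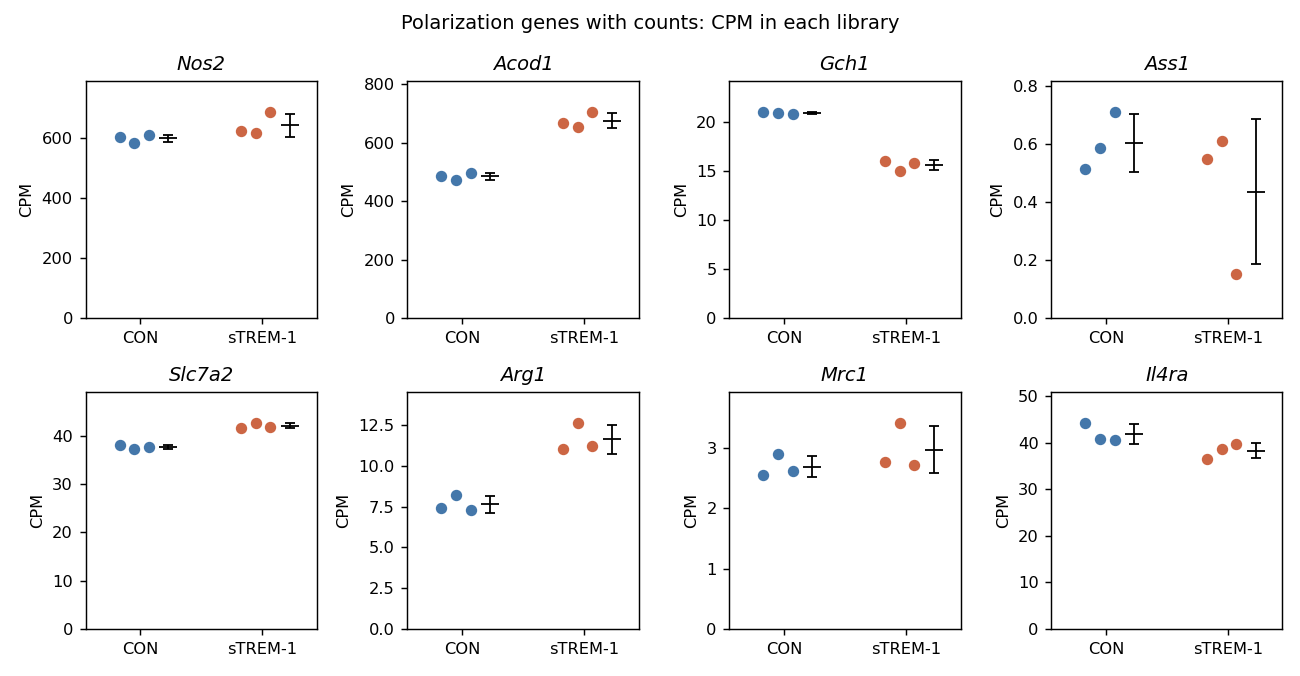
CPM of the 8 genes with counts in each library (dots, linear axis from 0) of the CON group (blue) and the sTREM-1 group (orange), with the mean and SD beside each group (n = 3). The groups do not overlap for Nos2, Acod1, Gch1, Slc7a2, Arg1 and Il4ra, and they overlap for Ass1 and Mrc1.

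Nos2 encodes the inducible nitric oxide synthase, which makes nitric oxide from arginine and is the classical M1 enzyme of mouse macrophages. The gene lies at chr11:78920787-78960254 on the plus strand (GRCm38, 27 exons). Its level was 601, 583 and 607 CPM in the CON libraries and 621, 616 and 685 CPM in the sTREM-1 libraries. Every sTREM-1 library was above every CON library, but 2 of them were only slightly so and replicate 3 stood apart. Nos2 rose from 597 ± 12.4 to 641 ± 38.4 CPM (SD, n = 3), by 0.10 on the log2 scale (SE 0.03, 95% CI 0.04 to 0.16, adjusted p = 0.0069), which is a 1.07-fold change. The size of this change was at percentile 41.8 of all tested genes. Without sTREM-1 replicate 3 the log2 fold change was 0.05 with an adjusted p of 0.111, and DESeq2 gave 0.10 with an adjusted p of 0.154, so the call rested on that library and on the test used.

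Slc7a2 encodes CAT2, the inducible cationic amino acid transporter that brings arginine into activated macrophages. It lies at chr8:40862396-40922308 on the plus strand (12 exons). The CON libraries had 38.1, 37.2 and 37.6 CPM, and the sTREM-1 libraries had 41.7, 42.8 and 41.9 CPM. The libraries of each group were close together and the groups were apart. Slc7a2 rose 1.12-fold, by 0.16 on the log2 scale (SE 0.05, 95% CI 0.07 to 0.25, adjusted p = 0.0067). Slc7a1, the transporter that cells use constitutively for arginine, stood at 380 ± 10.6 CPM and 387 ± 13.7 CPM, and its log2 difference of 0.03 (SE 0.03) had an adjusted p of 0.527. Per length, the level of Slc7a2 was 0.0899 of that of Slc7a1 in the CON group and 0.0988 of it in the sTREM-1 group.

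Gch1 encodes GTP cyclohydrolase, the first and rate-limiting enzyme in the synthesis of tetrahydrobiopterin, the cofactor that nitric oxide synthases need. It lies at chr14:47153895-47189413 on the minus strand (6 exons). Its level was 21.1, 20.9 and 20.8 CPM in the CON libraries and 16.0, 15.1 and 15.9 CPM in the sTREM-1 libraries. The 2 groups were well separated. Gch1 fell by 0.42 on the log2 scale (SE 0.07, 95% CI -0.56 to -0.28, adjusted p = 2.0e-05), to 0.748 of its CON level. It was the gene on the M1 side that was called lower, while Nos2 was called higher within the limits given for it above. Per length, the ratio of Nos2 to Gch1 was 18.9 in the CON group and 27.1 in the sTREM-1 group. The log2 ratio was 4.24, 4.21 and 4.27 in the CON libraries and 4.68, 4.76 and 4.84 in the sTREM-1 libraries. Gchfr, whose product feeds tetrahydrobiopterin levels back onto GTP cyclohydrolase, was close to the limit of detection. It had 2, 4 and 11 counts across the CON group and 16, 9 and 11 across the sTREM-1 group (log2 1.00, SE 0.63, adjusted p = 0.257).

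The 250 bases before the Gch1 start are shown because Gch1 is the gene with the larger fall (GRCm38.p6, chr14:47189414-47189663, minus strand, RefSeq). Capitals mark a match to the NF-kB motif, whose degenerate letters fit this stretch on either strand.
Gch1: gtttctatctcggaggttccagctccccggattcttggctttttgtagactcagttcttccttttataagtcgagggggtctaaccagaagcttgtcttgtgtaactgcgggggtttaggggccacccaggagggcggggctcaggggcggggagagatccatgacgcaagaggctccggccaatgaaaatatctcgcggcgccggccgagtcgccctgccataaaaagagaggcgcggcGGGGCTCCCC
The match covers bases -10 to -1 counted from the start, and 7.25% of 32851 RefSeq promoters of this length hold such a match on either strand. The window held none of the other motifs searched, namely TTCNNNGAA (the interferon-gamma activated site), the STAT6 motif, the interferon-stimulated response element, TTGCNNAA (C/EBP) and ACGTG (the core of a hypoxia response element) on both strands. A TATA box, searched on the transcribed strand, was not matched either. A match is a description of the letters and says nothing of binding.

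Ass1 encodes argininosuccinate synthase, which with Asl rebuilds arginine from citrulline. It lies at chr2:31470207-31520672 on the plus strand (16 exons). Its counts were 21, 24 and 29 across the CON group and 25, 26 and 6 across the sTREM-1 group, which is 0.603 ± 0.0999 CPM and 0.436 ± 0.249 CPM (SD, n = 3). Replicates 1 and 2 of the sTREM-1 group lay within the range of the CON libraries, and replicate 3 was far below the others. The log2 difference was -0.45 (SE 0.44, 95% CI -1.35 to 0.45, adjusted p = 0.495), and without sTREM-1 replicate 3 it was -0.06. As a limit of these counts, 44.7% of the 50-base stretches of Ass1 transcripts occur nowhere else in the transcripts of the annotation, and 911 of 1647 are shared with the processed pseudogene Gm5424 on chromosome 10. The Ass1 values are therefore uncertain, since reads of both genes may have been split in the counting. Asl stood at 51.4 ± 2.81 CPM and 51.0 ± 0.286 CPM, a log2 difference of -0.01 (SE 0.04, adjusted p = 0.883).

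Acod1 encodes aconitate decarboxylase, which makes itaconate from the Krebs cycle intermediate cis-aconitate in activated macrophages. It lies at chr14:103046977-103056573 on the plus strand (5 exons). The CON libraries had 487, 470 and 495 CPM, and the sTREM-1 libraries had 667, 654 and 704 CPM. All 3 sTREM-1 libraries lay far above the CON libraries. Acod1 rose 1.39-fold from 484 ± 12.6 to 675 ± 26.1 CPM, by 0.48 on the log2 scale (SE 0.03, 95% CI 0.43 to 0.53, adjusted p = 5.2e-15). This was the smallest adjusted p of the 8 tested genes, and the change was at percentile 90.9 of all tested genes. In each group Acod1 was the highest of the genes per length, at 185 ± 4.81 CPM per kb in the CON group and 257 ± 9.96 CPM per kb in the sTREM-1 group. The ratio of Acod1 to Nos2 per length, a ratio chosen after the values were seen, was 1.30 in the CON group and 1.69 in the sTREM-1 group.

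The promoter of Acod1 is shown as that of the gene with the clearest rise (GRCm38.p6, chr14:103046762-103047011, plus strand, RefSeq). Capitals mark a TATA box (TATAAA) and then the core of a hypoxia response element (ACGTG, here on the opposite strand and so printed as its reverse complement).
Acod1: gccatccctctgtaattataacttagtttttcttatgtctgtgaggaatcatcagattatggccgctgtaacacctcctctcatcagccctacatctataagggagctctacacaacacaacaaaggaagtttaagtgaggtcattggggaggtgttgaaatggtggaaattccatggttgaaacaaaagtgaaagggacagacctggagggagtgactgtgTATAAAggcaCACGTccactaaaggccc
The TATA box lies at -28 to -23 and is present in 7.59% of all RefSeq promoters, and the ACGTG core lies at -18 to -14 and is present in 16.6%. These positions count from the RefSeq start, which lies inside the gene as placed above by GENCODE. Both matches are thus within the GENCODE gene. None of the other motifs named for Gch1 matched in this window.

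Arg1 encodes arginase, which turns arginine to ornithine and urea and is the classical M2 enzyme of the mouse. It lies at chr10:24915221-24927484 on the minus strand (8 exons). Its level was 7.40, 8.24 and 7.30 CPM in the CON libraries and 11.0, 12.6 and 11.2 CPM in the sTREM-1 libraries. The lowest sTREM-1 library was above the highest CON library. Arg1 rose 1.52-fold (95% CI 1.33 to 1.74), by 0.60 on the log2 scale (SE 0.10, adjusted p = 1.2e-05), and it had the largest fold change of the 6 genes that differed. Arg1 was also the gene of the set that stayed called when an estimated change of at least 1.5-fold was required. That threshold was put on the estimate and was not itself tested. With single libraries left out the log2 fold change of Arg1 ranged from 0.54 to 0.66, on both sides of that threshold. Arg2, the mitochondrial arginase, had 2 counts in sTREM-1 replicate 1 and 0 in each other library.

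Nos2, within the limits given for it above, and Arg1 were both called higher, and their ratio was compared within each library. Per length, the log2 ratio of Nos2 to Arg1 was 4.84, 4.64 and 4.87 in the CON libraries and 4.31, 4.10 and 4.43 in the sTREM-1 libraries. The groups did not overlap, and Nos2 was 27.6 times as high as Arg1 in the CON group and 19.4 times as high in the sTREM-1 group. This ratio is given as a description, with no test of its own.

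Mrc1 encodes CD206, the mannose receptor of alternatively activated macrophages. It lies at chr2:14229392-14332057 on the plus strand (30 exons). The CON libraries had 2.56, 2.90 and 2.62 CPM and the sTREM-1 libraries had 2.78, 3.42 and 2.72 CPM. Replicate 2 of the sTREM-1 group was higher than the rest, and the other two lay within the range of the CON libraries. The log2 difference was 0.14 (SE 0.18, 95% CI -0.22 to 0.51, adjusted p = 0.604), an interval that holds both no change and a rise of the size seen for Slc7a2. Per length, the ratio of Arg1 to Mrc1 was 10.3 in the CON group and 14.3 in the sTREM-1 group.

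Il4ra encodes the shared chain of the IL-4 and IL-13 receptors. It lies at chr7:125552120-125579474 on the plus strand (11 exons). Its level was 44.3, 40.8 and 40.5 CPM in the CON libraries and 36.4, 38.6 and 39.6 CPM in the sTREM-1 libraries. The groups were separate, but the gap between them was narrow. Il4ra fell by 0.13 on the log2 scale (SE 0.05, 95% CI -0.23 to -0.03, adjusted p = 0.0433), to 0.913 of its CON level. The adjusted p was 0.252 without CON replicate 1, 0.220 without sTREM-1 replicate 1 and 0.0594 without sTREM-1 replicate 2, and DESeq2 gave 0.0579, so the call depended on these libraries and on the test used. The exons of Il4ra and Slc7a2 overlap genes on the other strand (Gm44876 and Gm26584), and reads of such pairs cannot be told apart if counting did not use strand.

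Chil3 (Ym1, chr3:106147554-106167564, minus strand) and Retnla (Fizz1, chr16:48842551-48844461, plus strand) encode secreted proteins that IL-4 induces strongly in mouse macrophages. Both were listed at 0 in all 6 libraries, as were their relatives Chil4, Retnlg and Retnlb. In any library a count of 0 allows a level of up to 0.0657 to 0.0756 CPM, counting error only. Some genes were listed at 0 together with most of their neighbours. Tnf was listed at 0 in all 6 libraries, and so were 16 of the 19 nearest protein-coding genes that the table holds. Around Chil3, 11 of 20 such neighbours were tested and 5 were listed at 0, and around Retnla, 8 of 19 were tested and 8 were listed at 0. Whether these zeros mark genes without RNA or genes without counted reads was not tested. Chil3 also shares sequence with other genes, since 70.6% of its 50-base stretches occur in no other gene, and 100% of those of Retnla do.

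The promoter of Retnla is shown because it carries letters that match STAT6 and C/EBP motifs next to each other (GRCm38.p6, chr16:48842359-48842608, plus strand, RefSeq). Capitals mark the STAT6 motif, then TTGCNNAA, the C/EBP motif, and then a TATA box.
Retnla: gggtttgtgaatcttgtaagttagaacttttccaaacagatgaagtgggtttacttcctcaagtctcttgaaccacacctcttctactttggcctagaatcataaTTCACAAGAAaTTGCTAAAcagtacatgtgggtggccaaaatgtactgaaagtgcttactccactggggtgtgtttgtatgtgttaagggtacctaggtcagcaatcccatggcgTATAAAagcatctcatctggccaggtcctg
The STAT6 match lies at -145 to -136 and the C/EBP match at -134 to -127. For Retnla too the RefSeq start lies inside the gene as placed above, and so does the TATA box. Of all RefSeq promoters of this length, 5.85% hold the STAT6 motif and 9.56% the C/EBP motif. Among the other promoters at hand, that of Chil3 held TTCNNNGAA (7.02% of all promoters), that of Ass1 held ACGTG, and those of Mrc1 and Il4ra held none of the motifs.

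**Figure D2:**
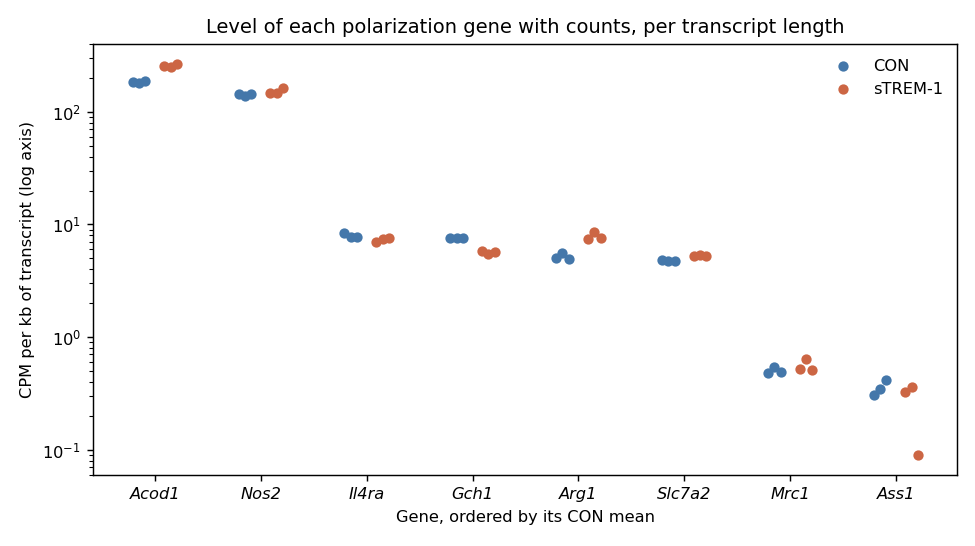
Level of each gene in CPM per kb of transcript (logarithmic axis) in each library (dots) of the CON group (blue) and the sTREM-1 group (orange), for the 8 genes with counts. Acod1 and Nos2 lie more than an order of magnitude above the others, and Mrc1 and Ass1 lie lowest.

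Per length, the order in the CON group was Acod1, Nos2, Il4ra, Gch1, Arg1, Slc7a2, Mrc1 and Ass1, from 185 to 0.355 CPM per kb. No 2 neighbouring genes with counts overlapped between libraries. The step from Il4ra to Gch1 was 0.422 CPM per kb against an SD of at most 0.399, and the step from Arg1 to Slc7a2 was 0.416 against 0.350. The length is that of the longest protein-coding transcript of each gene. These SDs do not cover that choice, so the order of close genes is uncertain. In the sTREM-1 group Arg1 came next after Nos2 with 7.87 CPM per kb, followed by Il4ra with 7.27, and the libraries of these genes overlapped. Arg1 was above Gch1 in every sTREM-1 library and below it in every CON library.

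**Figure D3:**
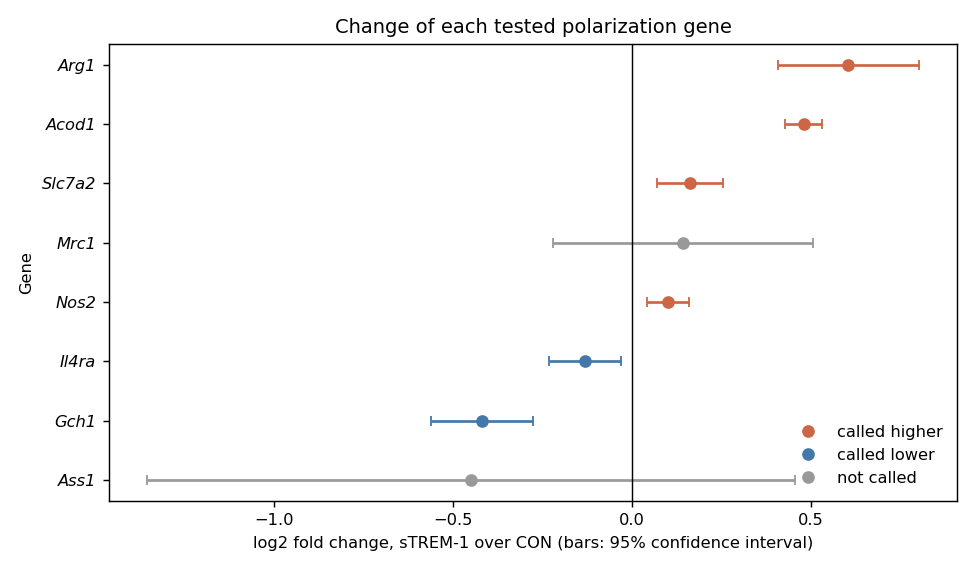
Log2 fold change (sTREM-1 over CON, edgeR) of the 8 tested genes with the 95% confidence interval (bars), orange where a gene rose, blue where it fell and grey where it did not pass the test. Nos2, Acod1, Slc7a2 and Arg1 lie above 0, Gch1 and Il4ra below it, and the intervals of Ass1 and Mrc1 include 0.

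**Figure D4:**
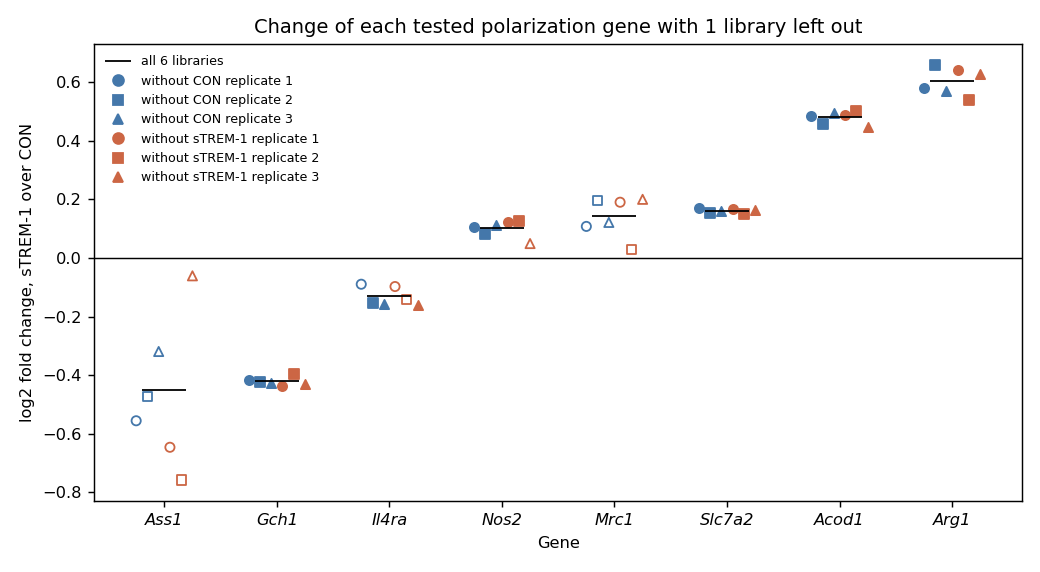
Log2 fold change of the tested genes with all 6 libraries (lines) and with each library left out in turn (symbols, filled where the adjusted p is under 0.05). Acod1, Gch1, Slc7a2 and Arg1 keep filled symbols throughout, Nos2 ranges down to 0.05 and Il4ra to -0.09, and Ass1 spans -0.76 to -0.06.

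Lists of other genes in the pathways around the 10 genes were counted the same way, and their counts are descriptions to be read against the 16.5% of all tested genes that rose and the 14.1% that fell. Of 16 genes of arginine and nitric oxide metabolism, 10 were tested, of which 3 rose and 0 fell (0 also at an unadjusted p under 0.05, with DESeq2 and with limma-voom), and their log2 fold changes had a median of 0.09. Ddah1, which clears the inhibitor asymmetric dimethylarginine, rose from 19.0 ± 1.19 to 25.8 ± 0.865 CPM (log2 0.44, adjusted p = 3.7e-06). Oat, which makes glutamate semialdehyde from ornithine, rose from 85.8 ± 1.40 to 96.4 ± 1.89 CPM (log2 0.17, adjusted p = 0.00024). Nosip, named for its binding to nitric oxide synthase, rose by 0.22 (adjusted p = 0.0018). Of the 7 genes of tetrahydrobiopterin synthesis other than Gch1, 6 were tested and 0 were called by edgeR, with a median of -0.03. The count was also 0 at an unadjusted p under 0.05, with DESeq2 and with limma-voom.

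Of 18 genes of itaconate handling, the Krebs cycle and enzymes and carriers beside it, all were tested, 10 rose and 1 fell, and the median was 0.11. The isocitrate dehydrogenase Idh1, a cytosolic enzyme and not that of the cycle, rose (log2 0.57, adjusted p = 2.3e-13). Idh3g (0.30, adjusted p = 1.9e-07) and Idh3a (0.27, adjusted p = 3.4e-07), which encode subunits of the mitochondrial enzyme of the cycle, rose too. Idh3b, which encodes another of its subunits, did not pass the test (0.04, adjusted p = 0.426). The gene that fell, the mitochondrial citrate carrier Slc25a1, was uneven in the CON group (counts of 92, 32 and 335 against 32, 48 and 46 in the sTREM-1 group), and the groups overlapped. Its log2 fold change was -1.92 (adjusted p = 0.0010) and -0.61 without CON replicate 3 (adjusted p = 0.265).

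Of 23 other M1 genes, 18 were tested, 4 rose (22.2%, against 16.5% of all tested genes) and 6 fell (33.3%, against 14.1%). Their median was -0.05. Cd38, counted as a rise, and Il23a, counted as a fall, stayed called in 2 and 1 of the 6 fits that left 1 library out. The Fc receptor Fcgr1 (log2 0.26, adjusted p = 2.1e-07) and the transcription factor Irf5 (0.14, adjusted p = 0.0044) were among those that rose. The prostaglandin synthase Ptgs2 fell from 679 ± 21.0 to 483 ± 14.5 CPM (log2 -0.49, adjusted p = 1.8e-15). The cytokine Il6 fell by 0.66 on the log2 scale (adjusted p = 2.8e-10). Cd86, the costimulatory ligand used as an M1 surface marker, fell from 135 ± 2.80 to 102 ± 3.37 CPM (log2 -0.41, adjusted p = 1.7e-11). Irf1, an M1 transcription factor, did not pass the test (log2 -0.05, adjusted p = 0.537).

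Of 30 other M2 genes, 19 were tested, 4 rose and 3 fell, with a median of 0.08. These shares (21.1% and 15.8%) were close to those of all tested genes (16.5% and 14.1%), so the counts say nothing particular about the list. The scavenger receptor Msr1 (log2 0.40, adjusted p = 1.6e-11), the VEGF receptor Flt1 (0.29, adjusted p = 6.9e-09) and the beta-glucan receptor Clec7a (0.39, adjusted p = 7.6e-06) rose. Il1rn, the IL-1 receptor antagonist, fell from 218 ± 5.92 to 122 ± 5.96 CPM (log2 -0.84, adjusted p = 3.2e-18), and the transglutaminase Tgm2 (-0.41, adjusted p = 0.0032) and the coactivator Ppargc1b (-0.21, adjusted p = 0.0060) fell. Mgl2, Ccl17 and Cd163 were among the 7 listed at 0.

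Of 12 genes of the IL-4 receptor pathway beside Il4ra, 9 were tested, 4 rose and 1 fell, with a median of 0.04. Stat6, the transcription factor downstream of the receptor, rose from 150 ± 2.51 to 172 ± 1.86 CPM (log2 0.20, adjusted p = 1.5e-06), and the kinases Jak3 (0.31, adjusted p = 1.0e-05) and Tyk2 (0.20, adjusted p = 0.0033) rose. Il2rg, the common gamma chain that pairs with the receptor chain of Il4ra, fell from 198 ± 2.04 to 172 ± 1.42 CPM (log2 -0.20, adjusted p = 5.2e-07). Il13ra1, the alternative partner, stood at 102 ± 6.08 and 105 ± 0.856 CPM (adjusted p = 0.430). A list of 22 genes of interferon, TLR4 and NF-kB signalling held inhibitors such as Nfkbia as well as activators. All 22 were tested, 9 rose and 4 fell, with a median of 0.06. These counts therefore do not say whether the signal to the M1 enzymes rose or fell. Nfkbia (log2 0.18, adjusted p = 2.3e-05) and Stat2 (0.21, adjusted p = 9.5e-05) were among those that rose, and Cebpb (-0.25, adjusted p = 3.8e-06), Cd14 (-0.12, adjusted p = 0.00082) and Nfkbiz (-0.11, adjusted p = 0.0023) fell.

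**Figure D5:**
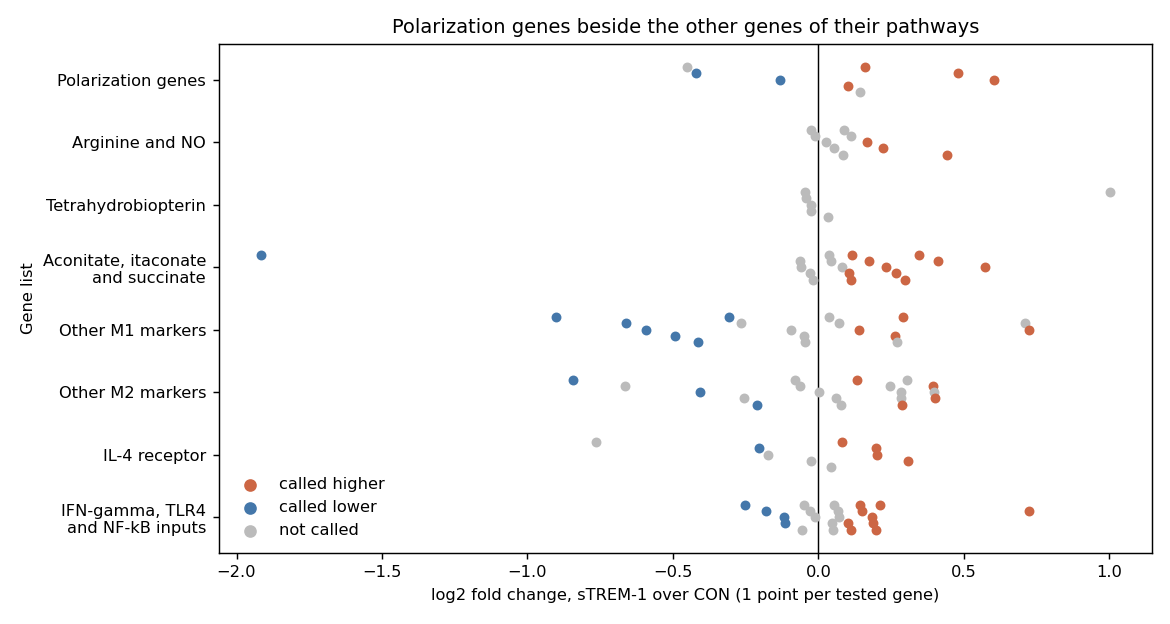
Log2 fold change (sTREM-1 over CON) of each tested gene (dots) among the polarization genes and in the 7 pathway lists, orange where a gene rose, blue where it fell and grey where it did not pass the test. Every list but that of tetrahydrobiopterin holds called genes, and the dot farthest to the left is Slc25a1 at -1.92.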

How the data were processed

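RNA of BV2 cells was measured in 3 CON and 3 sTREM-1 libraries. For each gene symbol the authors deposited raw counts, as whole numbers, in one column per library, and each column name matches a label. RSEM was named by the study for quantification. The submitters' processing notes also list HISAT2 2.0.4 with builds hg19 and GRCh38, both human and with no role given, while the cells are of mouse. The build and annotation used for these counts are not given in the sources used here.

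Genes with at least 10 counts by filterByExpr were normalized by TMM. Groups were compared without covariates by edgeR's quasi-likelihood method (edgeR 4.0.16, R 4.3.3), and genes whose Benjamini-Hochberg adjusted p-value over all tested genes was under 0.05 were called. The SE is the log2 fold change divided by the root of F, and CPM are counts over the scaled library size. Values per length divide CPM by the length of a gene's longest protein-coding transcript in GENCODE M21. The transcripts behind the counts may differ, which would shift levels and ratios between genes. The procedure was tested on simulated data, in which 99 tested genes were changed 1.1-fold and 99 were changed 1.5-fold. It recovered 17.2% of the 1.1-fold and 74.7% of the 1.5-fold changes, and 3.19% of its calls were false. Far fewer genes were changed there than were called here, so these shares need not hold for the data. Coordinates are from the GENCODE M21 annotation of GRCm38, and promoters, held for 7 of the 10 genes, from RefSeq. The genes, gene lists and ratios were chosen with earlier results of these data known. All 10 genes are named, from each pathway list at most 3 genes that rose and 3 that fell with the smallest p-values, and fixed partners and paralogs. A gene that this rule selects is not reported here. Alternatives were RLE size factors, other count filters, DESeq2 1.42.0, voom of limma 3.58.1, a 1.5-fold threshold, a replicate block and leaving out each library. Upper quartile scaling, a GC and length correction, the latter with the block, and Ass1 summed with its pseudogene were chosen after the data were seen.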

Additional observations from a re-analysis of the deposited data

How the results depend on the processing

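Of 127 recomputed values of single genes, 121 were counted as keeping their side of the threshold, 6 lost the call, and none was reversed. The 121 include Ass1 with DESeq2, which gave it no adjusted p and so no call. They also include the other genes after Ass1 was summed with its pseudogene, which could hardly change them. The 6 were Nos2 and Il4ra with DESeq2 and without single libraries, whose values are given with those genes. Of the polarization genes 6 were called in the analysis reported, and 4 with DESeq2. Leaving out each library in turn gave 5 to 6 called genes of the set and 3608 to 3863 called genes in all. With a 1.5-fold threshold on the estimate added, 1 gene of the set (Arg1) and 301 genes in all were called, against 4312. Replicate numbers are shared by the groups, but libraries with the same number did not deviate together (correlations of -0.0178, -0.0335 and -0.0137, and 0 of 6 libraries correlated best with the library of its own number). A replicate block gave 4613 called genes and the same 6 calls in the set. Of 57 called genes of the pathway and marker lists, 46 stayed called without any 1 library. Jak1, Irf9, Nfkb1, Myd88, Cebpd, Cd38, Il23a, Slc25a1, Cx3cr1, C1qa and Cnp were the others. Ass1 had no value when at least 10 counts were required in every sample. Ass1 and Mrc1 had the widest intervals of the 8 tested genes. The CV of Ass1 among the sTREM-1 libraries was 57.0%, against 22.9% from counting alone, and that of Mrc1 was 13.1%, against 8.87%.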

Other observations

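Ass1 and its processed pseudogene Gm5424 had opposite extremes in the same library. The counts of Gm5424 were 9, 14 and 6 across the CON group and 3, 8 and 23 across the sTREM-1 group, and sTREM-1 replicate 3, the library with 6 counts of Ass1, had the 23. Summed over both genes, the counts were 30, 38 and 35 in the CON group and 28, 34 and 29 in the sTREM-1 group, and the log2 difference was -0.23 (SE 0.35) with an adjusted p of 0.674 in edgeR. This sum was chosen after the values were seen.

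Genes of a region of chromosome 17 were listed at 0 in all libraries. Of the 20 protein-coding genes nearest to Aif1, 19 were in the table, 17 were listed at 0 and 0 were tested. Around Tnf, 16 of 19 were at 0, and around Ddah2, 15 of 18 were.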
